A study of Mus musculus with 12 samples.

Results

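The 10 genes described here encode soluble and mitochondrial glutathione transferases of the alpha (Gsta1, Gsta2, Gsta3, Gsta4), kappa (Gstk1), mu (Gstm1, Gstm3, Gstm6) and pi (Gstp1, Gstp2) classes. They were found by gene symbol, all 10 had a row, and they are 10 of the 20325 genes quantified in each library. They were picked with earlier results of these libraries in view, so their levels and fold changes under the treatments are given as a description, with no p-value. Changes of genes outside the 10 are given with their tests.

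Glutathione transferases join the tripeptide glutathione to electrophilic compounds, which makes them more soluble and ready for export, and many also reduce lipid peroxides. Alpha, mu and pi enzymes work in the cytosol as dimers of subunits of the same class, whereas the kappa enzyme belongs to a separate family and is found in mitochondria and peroxisomes. Many genes of the alpha, mu and pi classes sit in clusters of duplicated copies. Many also carry regulatory elements bound by the oxidative stress factor NRF2 or by the aryl hydrocarbon receptor.

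The RNA came from pre-iPSCs, a clonal line of mouse cells stalled late in reprogramming. By the study's account of the derivation, embryonic fibroblasts with a Nanog-GFP reporter were transduced with retroviruses for Oct4, Sox2, c-Myc and Klf4. The line was picked as GFP-negative. The study's methods also describe the fibroblasts behind pre-iPSCs as heterozygous for R26 rtTA, with a single-cassette factor allele (OKSM and OSKM). Which account holds for the sequenced line is not stated, and all groups share its alleles and transgenes. Cells were kept for 48 h in serum and LIF medium, without feeders, with the solvent DMSO, with ascorbic acid (AA, 50 µg/ml), with 2i (the MEK inhibitor PD0325901 at 1 µM and the GSK inhibitor CHIR99021 at 3 µM) or in AA+2i. Each of the 4 conditions had 3 biological replicates, labelled A, B and C, and the comparison asks how the chromatin-directed vitamin and the signalling inhibitors each changed expression at the start of conversion. The libraries are cultures of what the sources describe as a clonal line, so the spread between them is that of cultures and library preparation and not of independent lines.

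The libraries held 16173322 to 54392719 expected counts (median 21854762), and the B libraries of DMSO and AA were the deepest. E-cadherin (Cdh1) and Epcam, surface markers of pre-iPSCs, were present in every library, with a level summed with that of Fut4 of 98.0 to 148.7 TPM (a length-corrected level that sums to the same total in each library) with DMSO and 217.6 to 328.5 TPM with AA, whereas Fut4 itself, which can make the SSEA1 epitope, was at or near 0 throughout. Nanog and Esrrb summed to 3.16 to 7.45 TPM with DMSO, at least 17.3 TPM (median 18.3) with AA, 5.25 to 7.1 TPM with 2i and 34.5 to 43.5 TPM in AA+2i. With AA, Nanog (log2 change 2.02) and Cdh1 (1.13) were called higher by edgeR, and their part in the changes of the 10 genes was not tested. The 9 fibroblast or feeder markers summed to 3.61 to 11.4 TPM with DMSO, 8.52 to 19.6 TPM with AA, 4.47 to 4.84 TPM with 2i and 6.93 to 9.38 TPM in AA+2i, with Thy1 the largest part with AA (6.69 to 15.99 TPM). Of the 7 fibroblast markers tested, 1 (Col3a1) was called higher in AA+2i and none with AA or 2i. As checks of the treatments, the MEK target Dusp6 was called lower with 2i (log2 change -3.0), the beta-catenin target Axin2 higher (5.83) and Dppa5a higher with AA (4.76), all by edgeR. The 6 primitive endoderm markers summed to at most 0.94 TPM. These are bulk cultures, in which fewer cells of a type and less RNA per cell cannot be told apart.

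Several of the 10 genes are near-identical copies, and the counting divided reads that match both copies in proportion. In the mm9 annotation, Gsta4 (chromosome 9, 78039773 to 78057155, plus strand), Gsta1 (78078463 to 78090491, plus) and Gsta2 (78178825 to 78203595, minus) lay in a cluster, and Gsta3 stood apart on chromosome 1 (21230670 to 21255442, plus). Gstm6 (107741765 to 107746667), Gstm3 (107745251 to 107772201) and Gstm1 (107815173 to 107820891) followed each other on the minus strand of chromosome 3, with Gstm6 and Gstm3 overlapping at their ends. Gstp1 (4035411 to 4037921) and Gstp2 (4040291 to 4042221) were neighbours on the minus strand of chromosome 19, and Gstk1 was on chromosome 6 (42195934 to 42200440, plus). The coding sequences of Gstp1 and Gstp2 were identical at 621 of 633 positions (98.1%), with 1 identical run of 303 bases, and 6 of their 12 differences fell in the first 60 coding bases. These stretches are shown because reads over differing bases, of which these are a part, are what separates the pi copies. Capitals mark the bases that differ between the copies:
Gstp1 coding bases 1 to 60: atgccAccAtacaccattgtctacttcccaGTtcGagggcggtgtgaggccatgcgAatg
Gstp2 coding bases 1 to 60: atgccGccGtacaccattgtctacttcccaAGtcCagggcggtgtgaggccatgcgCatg

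Gsta1 and Gsta2 were identical at 655 of 672 coding positions (97.5%), with 17 differences. Coding bases 449 to 508 hold 5 of them, in capitals:
Gsta1 coding bases 449 to 508: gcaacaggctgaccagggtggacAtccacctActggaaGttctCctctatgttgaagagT
Gsta2 coding bases 449 to 508: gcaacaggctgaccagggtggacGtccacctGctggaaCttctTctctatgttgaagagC

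Of all 90-base windows of the transcript, the length of a trimmed read, 60.3% of those of Gstp1 also occurred in Gstp2 and 59.8% of those of Gstp2 in Gstp1. The share was 26.8% for Gsta1 (in Gsta2 or in the alpha gene Gm10639) and 37.9% for Gsta2. It was 3.3% for Gstm1, 6.9% for Gstm3 and 3.4% for Gstm6, and 0.0% for Gsta3, Gsta4 and Gstk1. These are exact matches and do not cover reads aligned with mismatches. Gsta1, Gsta4, Gstp1 and Gstp2 had a fractional expected count in all 12 libraries, whereas that of Gstk1 was whole in 9 and that of Gsta3 in 1.

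In DMSO the 10 genes spanned levels from among the most abundant transcripts of the cells to none detected. Gsta4 ranked 81 of 20325 genes by mean TPM and Gstp1 ranked 201. Gstm1 (71.0 TPM), Gsta3 (56.5 TPM) and Gsta1 (54.4 TPM) followed with overlapping ranges, then Gstp2 (25.2 TPM), then Gstm6 (5.56 TPM) and Gstk1 (4.29 TPM), which also overlapped. Gstm3 (0.05 TPM) and Gsta2 (0.0 TPM) were at the bottom. With AA, Gsta4 and Gstp1 again led without overlap, followed by Gsta1, Gstp2, Gstm1 and Gsta3, in which each overlapped with the next, and then by Gstk1 above Gstm6. With 2i, Gsta4 and Gstp1 overlapped at the top, Gsta3, Gstm1 and Gstp2 each overlapped with the next, and Gsta1 stood below them. In AA+2i, Gstp1 (1481 TPM) and Gsta4 (1096 TPM) overlapped at the top, and Gstp2 (254.6 TPM) stood alone above Gsta3 and Gstm1.

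**Figure D1:**
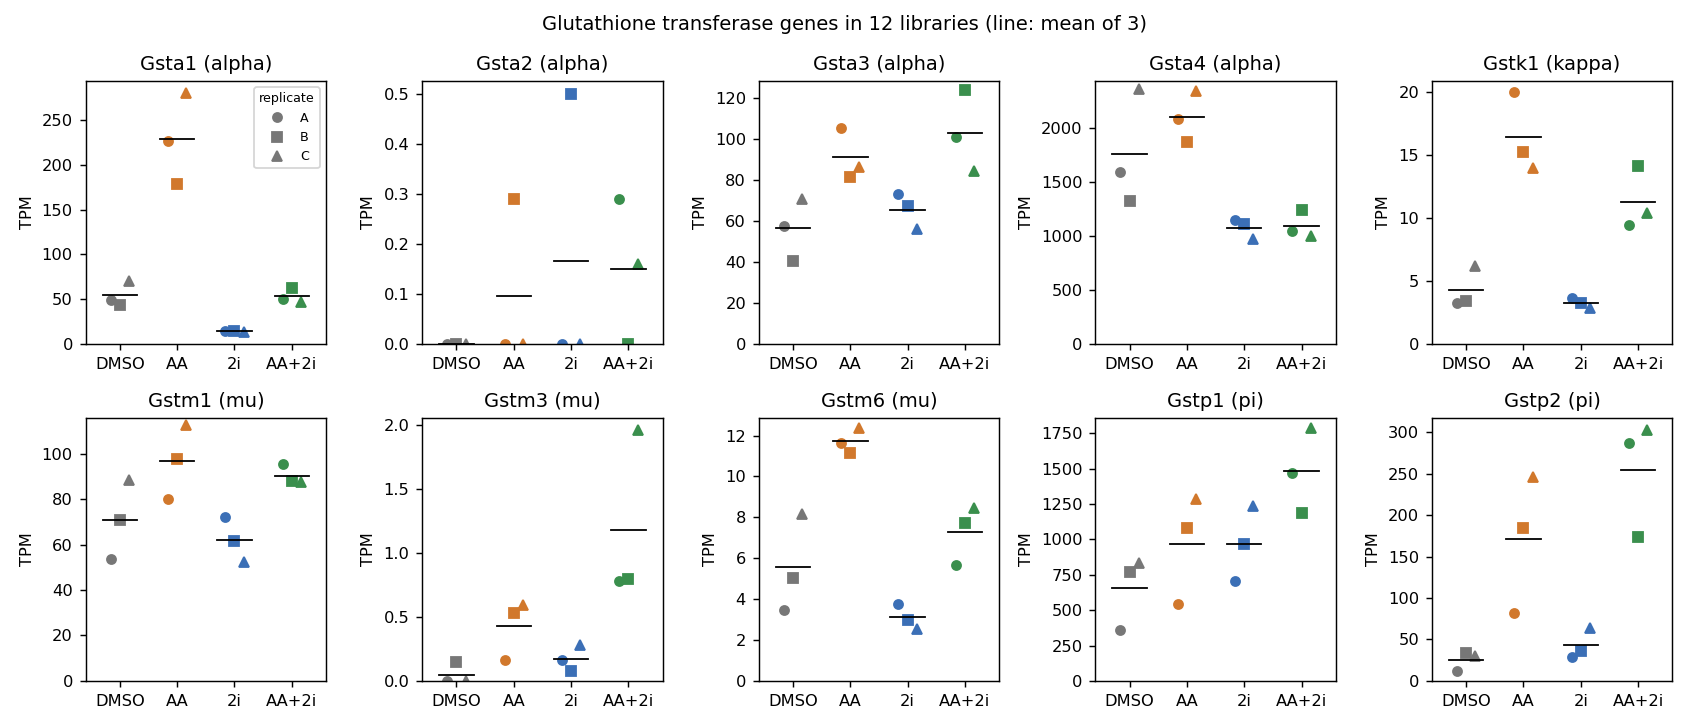
Level of each of the 10 glutathione transferase genes (TPM, linear axis from 0, a scale of its own in each panel) in the DMSO, AA, 2i and AA+2i libraries. Points are libraries with the shape giving the replicate letter, and lines are means of 3. Gsta1 stands highest with AA, Gstk1 is highest on average with AA, Gsta4 is lower with 2i and in AA+2i, and Gstp1 and Gstp2 are highest on average in AA+2i.

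Gsta1, an alpha transferase that also reduces lipid peroxides, moved in opposite directions with the single treatments. It was at 49.53, 43.24 and 70.46 TPM with DMSO, at 226.45, 178.51 and 280.0 TPM with AA, at 15.0, 14.48 and 13.75 TPM with 2i, and at 50.71, 62.99 and 46.74 TPM in AA+2i (replicates A, B and C here and in what follows). All AA libraries were above and all 2i libraries below every DMSO library, whereas AA+2i and DMSO overlapped. The mean TPM was 4.2 times that of DMSO with AA, 0.265 times with 2i and 0.983 times in AA+2i. The fitted log2 fold change against DMSO was 2.08 (SE 0.27) with AA, -1.75 (SE 0.27) with 2i and 0.16 (SE 0.26) in AA+2i. On top of 2i, AA was associated with a difference of 1.91 (SE 0.27), and on top of AA, 2i with a difference of -1.92 (SE 0.27). The departure of AA+2i from the sum of the separate log2 changes was -0.17 (SE 0.37), which is within its error.

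Gsta4, the alpha enzyme that conjugates the lipid peroxidation product 4-hydroxynonenal, had the highest mean level of the 10 genes in DMSO, AA and 2i. It was at 1595.16, 1320.87 and 2365.61 TPM with DMSO, and at 2083.27, 1870.23 and 2341.78 TPM with AA, so these groups overlapped. With 2i it was at 1146.64, 1111.09 and 969.49 TPM, and in AA+2i at 1045.52, 1238.79 and 1003.43 TPM, below every DMSO library in both. The ratio of means to DMSO was 0.611 with 2i and 0.622 in AA+2i, and the fitted log2 changes were -0.55 and -0.51 (SE 0.25 each), neither past the threshold. Gsta4 lies next to Gsta1 in the cluster, and with AA its ratio of mean TPM to DMSO was 1.19 against 4.2 for Gsta1.

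Gsta3, an alpha transferase known in rodents for its activity toward aflatoxin epoxide, was at 57.93, 40.84 and 70.82 TPM with DMSO and at 105.67, 81.43 and 86.32 TPM with AA. It was at 73.2, 67.26 and 56.07 TPM with 2i and at 101.07, 124.28 and 84.37 TPM in AA+2i. The AA and AA+2i libraries were above every DMSO library, and 2i overlapped with DMSO. The fitted change was 0.68 (SE 0.25) with AA, 0.36 (SE 0.25) with 2i and 1.03 (SE 0.25) in AA+2i, and the last was past the threshold. It was not past it without DMSO replicate A (1.07), and with the GC correction it was 1.3 and past it.

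Gsta2 was at 0 in 8 of the 12 libraries, with at most 6.57 expected counts in any, and did not pass the filter on low counts. Its counts summed over the 3 libraries were 0.0 in DMSO, 6.57 with AA, 5.08 with 2i and 4.13 in AA+2i, against a floor of 3 counts, and no fold is given. Since 37.9% of its windows occur in other genes, these reads cannot be assigned to it firmly. Summing Gsta1 with Gsta2 left the log2 changes at 2.08 with AA and -1.73 with 2i, and adding Gm10639 gave the same values.

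Within the alpha class, Gsta1 made up 2.91, 3.08 and 2.81% of the summed alpha TPM with DMSO, 9.38, 8.38 and 10.3% with AA, 1.21, 1.21 and 1.32% with 2i, and 4.23, 4.42 and 4.12% in AA+2i. These 4 groups did not overlap, although the Gsta1 levels of DMSO and AA+2i did. Gsta4 TPM was 32.1 ± 1.52 times Gsta1 TPM with DMSO (mean ± SD, n = 3), 9.35 ± 1.06 times with AA, 74.6 ± 3.51 times with 2i and 20.6 ± 0.901 times in AA+2i. Gsta3 went from 3.04 ± 0.312% of the alpha total with DMSO to 5.65 ± 0.267% with 2i and 8.2 ± 0.673% in AA+2i, while the Gsta4 level was lower.

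**Figure D2:**
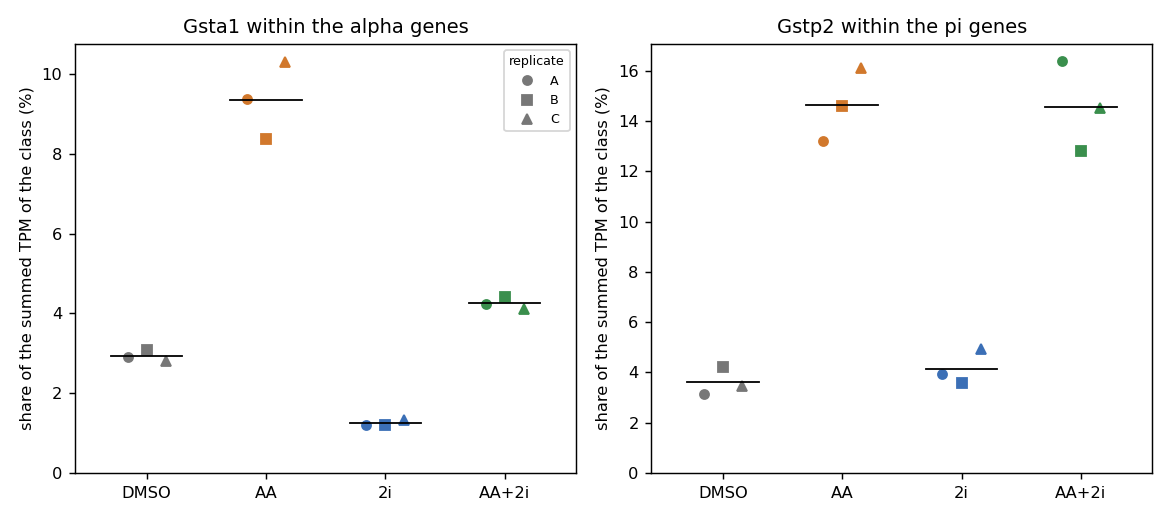
Share of Gsta1 in the summed TPM of the 4 alpha genes (left) and of Gstp2 in that of the 2 pi genes (right), in percent on linear axes from 0, for the 3 libraries of each condition (points, shape by replicate) with the mean (line). The Gsta1 share falls into 4 separate groups, from 1.21% to 10.3%, and the Gstp2 share into a group of DMSO and 2i libraries (3.13 to 4.93%) and a group of AA and AA+2i libraries (12.8 to 16.4%).

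Gstk1, the kappa transferase, was at 3.28, 3.41 and 6.18 TPM with DMSO, and at 20.04, 15.3 and 14.03 TPM with AA. It was at 3.65, 3.3 and 2.87 TPM with 2i, and at 9.43, 14.17 and 10.39 TPM in AA+2i. Every library with AA, with or without 2i, was above every library without it. The fitted log2 change against DMSO was 1.95 (SE 0.32) with AA, -0.21 (SE 0.32) with 2i and 1.60 (SE 0.31) in AA+2i, and adding AA to 2i gave 1.81 (SE 0.32). The AA+2i and AA libraries overlapped, with a difference of -0.35 (SE 0.30). Between 24.0 and 382.46 counts lay behind these values, and none of the 90-base windows of Gstk1 occurred in another gene.

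Gstm1, the main mu transferase of mouse liver, was at 53.69, 71.04 and 88.28 TPM with DMSO, at 80.25, 97.57 and 112.82 TPM with AA, at 72.26, 61.79 and 52.31 TPM with 2i, and at 95.27, 88.12 and 87.34 TPM in AA+2i. All 3 treatments overlapped with DMSO, within each letter the AA library was above the DMSO library, and the fitted changes were 0.48, -0.02 and 0.55 (SE 0.23 each). AA+2i was above 2i in all 3 libraries of each, with a fitted difference of 0.57. Gstm1 made up 92.9% of the summed TPM of Gstm1, Gstm3 and Gstm6 with DMSO and 88.7% with AA, on average. The mu genes Gstm2, Gstm4, Gstm5 and Gstm7 lie outside the 10 and are not in that sum. With DMSO they averaged 86.3, 12.8, 107.4 and 9.38 TPM, against 71.0 TPM for Gstm1.

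Gstm6, a mu gene at a lower level, was at 3.49, 5.05 and 8.15 TPM with DMSO, at 11.62, 11.15 and 12.38 TPM with AA, at 3.77, 2.99 and 2.55 TPM with 2i, and at 5.67, 7.71 and 8.45 TPM in AA+2i. The AA libraries stood above all others. Its fitted change with AA was 1.10 (SE 0.34) and did not pass the threshold with edgeR, whereas DESeq2 called it at the same value of 1.10. With 2i it was -0.67 (SE 0.34).

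Gstm3 was close to the limit of detection, with 0.0, 0.15 and 0.0 TPM with DMSO, 0.16, 0.53 and 0.59 TPM with AA, 0.16, 0.08 and 0.28 TPM with 2i, and 0.78, 0.8 and 1.96 TPM in AA+2i. Its expected counts summed to 3.92 over the DMSO libraries, 27.4 over AA, 6.26 over 2i and 51.08 over AA+2i. It had 10 or more counts in 3 of the 12 libraries, so it entered the test through the conditions in which it was high, and its call is no support for a change. The fitted change in AA+2i was 4.06 (SE 0.85), and on the log2(TPM + 1) scale it was 1.01. The annotation of Gstm3 overlaps that of Gstm6 on the same strand and 6.9% of its windows occur in Gstm1 or Gstm6.

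Gstp1, a pi transferase that is abundant in many epithelia and tumours, was at 361.31, 770.89 and 833.13 TPM with DMSO. It was at 539.94, 1078.17 and 1283.92 TPM with AA, at 705.15, 968.55 and 1238.06 TPM with 2i, and at 1465.96, 1189.14 and 1788.31 TPM in AA+2i. The A library was the lowest in DMSO, AA and 2i, and AA+2i was above every DMSO library. The fitted change was 0.61 with AA, 0.78 with 2i and 1.42 in AA+2i (SE 0.42 each), and edgeR called none of them, whereas DESeq2 called AA+2i at the same value of 1.42. Within each letter the AA library was above the DMSO library. With the replicate letter as a block, Gstp1 was called with 2i at 0.80, and in AA+2i, which the letters do not pair with DMSO, at 1.49. Gstp1 has the highest GC content of the 9 fitted genes (54.6%), at which the counts of DMSO replicate A ran 0.66 below and those of AA+2i replicate C 0.39 above the average library on the log2 scale. With that dependence removed, the change in AA+2i was 1.07 and was called.

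Gstp2, the near-identical neighbour of Gstp1, was at 11.67, 33.83 and 29.99 TPM with DMSO and at 81.76, 185.01 and 245.58 TPM with AA. It was at 28.82, 35.82 and 64.21 TPM with 2i and at 286.75, 173.85 and 303.07 TPM in AA+2i. Every library with AA was above every library without it, and 2i overlapped with DMSO. The mean was 6.79 times that of DMSO with AA, 1.71 times with 2i and 10.1 times in AA+2i. The fitted log2 change was 2.83 (SE 0.54) with AA, 1.00 (SE 0.52) with 2i and 3.59 (SE 0.56) in AA+2i, and the first and the last were past the threshold. Summing the reads of both copies removes the division between them. The sum changed by 0.80 (SE 0.42) with AA, not past the threshold, and by 1.59 (SE 0.43) in AA+2i, past it. Gstp2 averaged 3.6% of the summed TPM of the pair with DMSO. The sum therefore mostly follows Gstp1 and cannot show whether the Gstp2 change depends on the division.

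The share of Gstp2 in the pair followed the presence of AA. It was 3.13, 4.2 and 3.47% with DMSO, 3.93, 3.57 and 4.93% with 2i, 13.2, 14.6 and 16.1% with AA, and 16.4, 12.8 and 14.5% in AA+2i. The DMSO and 2i libraries overlapped, the AA and AA+2i libraries overlapped, and the highest library without AA (4.93%) was below the lowest with it (12.8%). Gstp1 TPM was 27.2 ± 4.12 times Gstp2 TPM with DMSO and 5.89 ± 0.69 times with AA (mean ± SD, n = 3). Gstp1 and Gstp2 had GC contents of 54.6% and 54.5%, at which the GC curve of DMSO replicate A lay at -0.66 and -0.62 and that of AA+2i replicate C at 0.39 and 0.37. The share rests on how the counting assigned reads at the bases that differ between the copies, of which those shown above are a part.

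The alpha genes summed to 1871 ± 570.0 TPM in DMSO, 2418 ± 288.8 with AA, 1156 ± 103.0 with 2i and 1253 ± 153.3 in AA+2i (mean ± SD, n = 3). The pi genes summed to 680.3 ± 267.7 TPM in DMSO, 1138 ± 466.6 with AA, 1014 ± 284.3 with 2i and 1736 ± 364.5 in AA+2i. The mu genes among the 10 (Gstm1, Gstm3 and Gstm6) summed to 76.6 ± 19.6, 109.0 ± 16.9, 65.4 ± 10.5 and 98.7 ± 2.67 TPM in that order of conditions. All these sums cover only genes among the 10. Gstm2, Gstm4, Gstm5 and Gstm7 are left out, so the mu values are not totals of the class. The fitted log2 changes of the mu genes left out were 0.37, 0.67, -0.06 and 0.25 with AA, and edgeR called none of them. The kappa gene is Gstk1 alone.

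As a share of the summed TPM of the 10 genes, the alpha class was at 79.7, 61.4 and 72.2% with DMSO, 76.7, 60.6 and 61.9% with AA, 60.3, 52.7 and 43.3% with 2i, and 39.1, 49.2 and 34.0% in AA+2i. The 2i and AA+2i libraries were below every DMSO library, and AA overlapped with DMSO. The pi share was 17.5, 35.2 and 24.9% with DMSO and 57.3, 47.0 and 62.7% in AA+2i. The share of the mu genes among the 10 was between 2.3 and 3.72% in all 12 libraries, with the other mu genes left out. In AA+2i replicate B the alpha share (49.2%) was above the pi share (47.0%). On counts per library size, which are not corrected for length, the mean shares in AA+2i were 47.0% alpha, 47.8% pi and 4.85% mu, and in DMSO 74.9%, 20.7% and 4.17%. The total of the 10 genes was 2136 to 3473 TPM in DMSO, 3149 to 4377 with AA, 2049 to 2400 with 2i and 2900 to 3334 in AA+2i, so AA and AA+2i each overlapped with DMSO, although within each letter the AA library (3149, 3518 and 4377 TPM for A, B and C) was above the DMSO library (2136, 2289 and 3473 TPM). These sums are dominated by Gsta4 and Gstp1, the latter with the GC dependence given above.

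**Figure D3:**
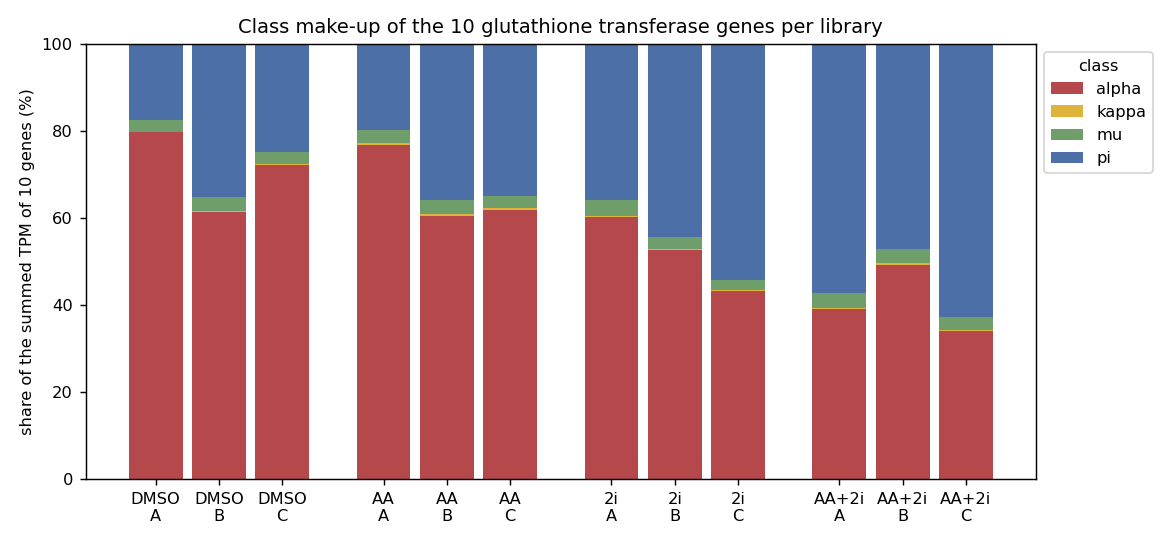
Share of the alpha, kappa, mu and pi classes in the summed TPM of the 10 genes (percent, stacked to 100), with 1 bar per library grouped by condition. The alpha share goes from 61.4 to 79.7% with DMSO down to 34.0 to 49.2% in AA+2i, where the pi share is 47.0 to 62.7%.

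Across the 9 genes that passed the filter of at least 10 counts in at least 3 libraries, edgeR called 3 higher with AA (Gsta1, Gstk1 and Gstp2) and 0 lower, where 1.34% of the 13400 tested genes were called (0.866% higher and 0.47% lower). With 2i, 1 was called lower (Gsta1) and 0 higher, against 4.42% of all genes (2.83% lower and 1.59% higher), and the block by replicate letter made these 2, adding Gstp1 upward. With AA+2i, 4 were called higher (Gsta3, Gstk1, Gstm3 and Gstp2) and 0 lower, against 8.34% of all (3.93% and 4.41%), and where 10 counts were required in every library, which leaves out Gstm3, 3 were called. AA+2i against 2i gave 2 higher (Gsta1 and Gstk1), against 0.91% of all genes (0.761% higher), and AA+2i against AA gave 1 lower (Gsta1), against 6.1% (3.29% lower). The rule that chose the genes drew on these comparisons, so nothing is read from the counts. Leaving out a replicate letter in all conditions ended many of the calls. The values of Gsta1 with AA moved little, whereas some of Gstk1 and Gsta3 moved by more than their SE. With AA, 1 call was left without A, 0 without B and 0 without C. Gsta1 was then at 2.10, 2.02 and 2.16 without A, B and C, none called, and Gstk1 at 1.72, 1.77 and 2.44, none called. Gstp2 was not called without B (2.94) or C (2.66). Without the single library DMSO replicate A, Gsta1 was still called with AA, whereas Gstk1 (1.82) and Gstp2 (2.51) were not. With 2i, Gsta1 was not called without B (-1.96) or C (-1.47). In AA+2i, Gsta3 was not called without A (1.12), B (0.68) or C (1.34), Gstk1 not without A (1.63) or B (1.25), and Gstp2 not without B (4.0). Gsta1 was between 2.02 and 2.19 with AA under all alternatives.

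The median log2 change of the 9 genes was 1.10 with AA, where that of all tested genes was -0.01, and it was -0.02 with 2i (all genes -0.02) and 1.03 in AA+2i (all genes -0.02). By libraries that do not overlap, 6 of the 9 were higher with AA than with DMSO (5.36% of all tested genes), and 5 were higher and 1 lower in AA+2i (9.6% and 22.5% of all). With 2i, 0 were higher and 2 lower (5.19% and 14.7% of all). Against 2i, 7 were higher and 0 lower in AA+2i (9.72% and 6.35% of all), and against AA, 1 was higher and 3 were lower (7.66% and 16.8% of all). Gstm3 is among the higher genes with AA, in AA+2i and in AA+2i against 2i, and it is the 1 higher against AA. It is also part of the medians. As it entered the test through the conditions in which it was high, its place in these counts is no support for a change. AA, 2i and AA+2i were set against the same DMSO libraries, so their values are side by side and not independent. For the interaction of AA with 2i, edgeR, DESeq2 and limma each called 0 of the 9, and 0 had an unadjusted edgeR p under 0.05, where 0.0149% of all genes were called.

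**Figure D4:**
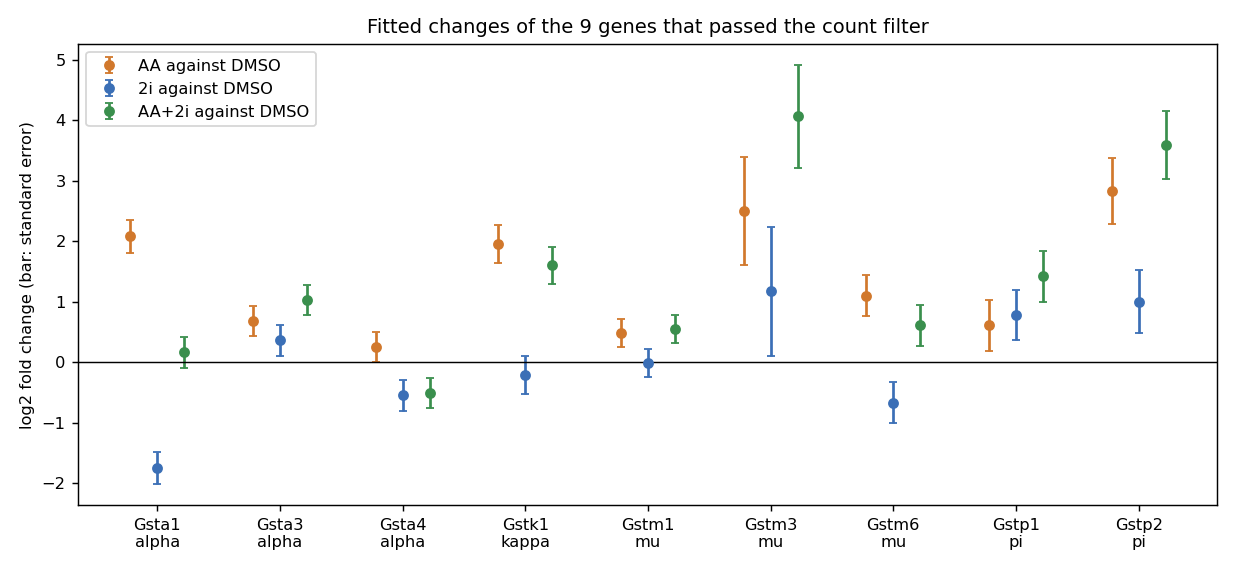
Fitted log2 fold change (points) with standard error (bars) of the 9 genes that passed the count filter, for AA, 2i and AA+2i against the same 3 DMSO libraries. With AA all 9 points lie above 0, from 0.25 for Gsta4 to 2.83 for Gstp2, and with 2i the lowest is Gsta1 at -1.75.

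The promoters of the genes called in any comparison against DMSO, other than Gstm3, are shown with that of Gstp1, the near-identical copy of Gstp2. RefSeq windows of 250 bases before to 50 bases after the start (GRCm38.p6) were found for 9 of the 10 genes, 12 promoters in all, and not for Gsta4. Over the aligned part, the windows of Gstp1 and Gstp2 were identical at 239 of 291 positions (82.1%) and those of Gsta1 and Gsta2 at 231 of 292 (79.1%). Capitals mark matches, on either strand, to the antioxidant response core TGACNNNGC or to the aryl hydrocarbon receptor core GCGTG, which do not overlap here:
Gsta1, chr9:78230419-78230718, plus strand: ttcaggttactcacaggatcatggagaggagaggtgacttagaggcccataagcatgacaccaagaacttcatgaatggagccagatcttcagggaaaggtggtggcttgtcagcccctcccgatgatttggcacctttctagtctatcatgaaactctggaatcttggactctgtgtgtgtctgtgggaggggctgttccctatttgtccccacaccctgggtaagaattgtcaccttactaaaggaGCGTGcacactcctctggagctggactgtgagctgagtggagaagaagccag
Gsta3, chr1:21240335-21240634, plus strand: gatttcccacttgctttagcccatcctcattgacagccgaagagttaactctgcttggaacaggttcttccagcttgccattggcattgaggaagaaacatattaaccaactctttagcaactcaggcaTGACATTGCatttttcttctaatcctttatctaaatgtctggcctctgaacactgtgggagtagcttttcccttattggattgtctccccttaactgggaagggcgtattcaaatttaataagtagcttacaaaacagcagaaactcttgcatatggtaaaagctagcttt
Gstk1, chr6:42245685-42245984, plus strand: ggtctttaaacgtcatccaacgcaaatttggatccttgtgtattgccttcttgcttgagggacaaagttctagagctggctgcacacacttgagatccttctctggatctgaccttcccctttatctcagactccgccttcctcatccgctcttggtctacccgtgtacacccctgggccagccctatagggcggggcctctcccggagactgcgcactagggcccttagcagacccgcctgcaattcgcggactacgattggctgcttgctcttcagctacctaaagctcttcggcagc
Gstp1, chr19:4037863-4038162, minus strand: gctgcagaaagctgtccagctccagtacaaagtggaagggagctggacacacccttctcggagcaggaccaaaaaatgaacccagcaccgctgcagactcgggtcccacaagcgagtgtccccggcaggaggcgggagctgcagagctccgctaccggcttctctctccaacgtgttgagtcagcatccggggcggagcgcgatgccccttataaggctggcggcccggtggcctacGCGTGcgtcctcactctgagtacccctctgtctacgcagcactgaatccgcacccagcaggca
Gstp2, chr19:4042172-4042471, minus strand: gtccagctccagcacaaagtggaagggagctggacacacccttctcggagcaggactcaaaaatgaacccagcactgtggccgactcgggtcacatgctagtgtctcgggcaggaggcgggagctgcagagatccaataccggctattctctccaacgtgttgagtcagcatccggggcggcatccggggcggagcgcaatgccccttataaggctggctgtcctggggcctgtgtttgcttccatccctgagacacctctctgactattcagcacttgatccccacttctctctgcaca

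The antioxidant core occurred in 1 of the 12 promoters, that of Gsta3, with its first base 121 bases before the start (-121), and in 12.4% of the 32851 promoters of the table. Only this exact form was sought, so stretches that differ from it at 1 base, such as tgagtcagc in both pi promoters, were not counted. The aryl hydrocarbon receptor core occurred in 5 of the 12 (Gsta1, Gsta2, both promoters of Gstm1, and Gstp1), and in 32.4% of all promoters. Gstp1 held it and Gstp2 did not. These are matches of letters in a short window and say nothing of binding.

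Transferases outside the 10 were examined as a list of 21 genes, of which 17 were tested. Against DMSO, edgeR called 0 with AA, 0 with 2i and 0 in AA+2i, with 5, 2 and 1 at an unadjusted p under 0.05, and DESeq2 called 2, 0 and 0 and limma 0 in each. Their median log2 changes were 0.22, -0.24 and -0.14. With the replicate letter as a block, 2 of them rose with AA (edgeR): Gm10639 by 2.02 (adjusted p = 0.0432) and BC021614 by 1.76 (adjusted p = 0.0277). The block takes the letters as pairing AA and 2i with DMSO, for which the sign was weak (see the processing below). Gm10639 is the alpha gene that shares windows with Gsta1 and Gsta2, and was at 0.69 to 2.76 TPM with DMSO and 4.07 to 9.66 TPM with AA. BC021614 was at 3.08 to 20.45 TPM with DMSO and 15.77 to 45.89 TPM with AA, which overlap. With 2i the block called Mgst1, the microsomal membrane-bound transferase, higher by 0.88 (adjusted p = 0.0123, edgeR). The omega-class gene Gsto1, among the most abundant of the list, was at 370.62 to 450.27 TPM with DMSO and 313.42 to 331.46 TPM with AA, and was not called.

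Of 29 genes of glutathione synthesis and recycling, 24 were tested. With AA, edgeR called 0 (2 at an unadjusted p under 0.05, and 0 by DESeq2 and by limma), and with the block Nnt, the mitochondrial transhydrogenase that supplies NADPH, fell by 0.54 (adjusted p = 0.0405, edgeR). Gclc and Gclm, the subunits of the rate-limiting enzyme of glutathione synthesis, were not called: Gclc was at 60.55 to 70.65 TPM with DMSO and 51.03 to 71.25 TPM with AA, and Gclm at 78.3 to 121.14 TPM with DMSO and 108.66 to 144.6 TPM with AA. Anpep, a peptidase of glutathione breakdown, fell by 2.98 on the log2 scale with 2i (SE 0.53, adjusted p = 0.01, edgeR), from 0.36 to 1.88 TPM with DMSO to 0.09 to 0.12 TPM. With the block, 3 of the list rose and 2 fell with 2i, where without it 0 rose and 1 fell. In AA+2i, 3 of the 24 (12.5%) were called, where 8.34% of all tested genes were, and 11 had an unadjusted p under 0.05. DESeq2 called 6 and limma 1. Slc1a4, an amino acid transporter, rose by 0.97 (SE 0.22, adjusted p = 0.0191, edgeR), Nnt fell by 1.06 (SE 0.25, adjusted p = 0.0271, edgeR), and Anpep fell by 2.08 (SE 0.49, adjusted p = 0.0246, edgeR). Over the alternatives the adjusted p in AA+2i reached 0.242 for Slc1a4, 0.328 for Nnt and 0.305 for Anpep, and that of Anpep with 2i reached 0.327.

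Among 27 enzymes that use glutathione and exporters of its conjugates, 23 were tested and 1 was called. Gpx2, a peroxidase that uses glutathione, rose with AA by 3.45 (SE 0.69, adjusted p = 0.0363, edgeR) and in AA+2i by 3.67 (SE 0.69, adjusted p = 0.00825, edgeR). It was at 0.12, 0.39 and 1.28 TPM with DMSO, at 2.52, 5.4 and 10.32 TPM with AA, at 0.74, 0.54 and 0.5 TPM with 2i, and at 7.03, 6.71 and 5.39 TPM in AA+2i. Over the alternatives its adjusted p ranged from 3.78e-05 to 0.993 with AA and from 2.37e-06 to 0.285 in AA+2i. With 2i, edgeR called 0 of the list, with 1 at an unadjusted p under 0.05, and DESeq2 and limma called 0.

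Of 19 transcription regulators of these genes, 15 were tested. Without a block, edgeR called 3 of them in AA+2i (Ahr, Maff and Bach2), where 8.34% of all tested genes were called. With 2i it called 1 (Maff), where 4.42% of all were. Nfe2l2, which encodes NRF2, was at 92.13 to 138.67 TPM with DMSO and 90.32 to 153.16 TPM with AA. Its inhibitor Keap1 was at 15.94 to 37.05 and 15.34 to 39.28 TPM, and neither was called. These are RNA levels, and the activity of the NRF2 protein was not tested. Ahr, the aryl hydrocarbon receptor, was at 1.83, 1.35 and 1.69 TPM with DMSO, at 1.0, 0.66 and 0.9 TPM with AA, at 3.1, 2.34 and 3.64 TPM with 2i, and at 4.3, 4.19 and 4.76 TPM in AA+2i, with no overlap between any 2 of the 4 conditions. It rose in AA+2i by 1.65 (SE 0.29, adjusted p = 0.00557, edgeR). With the block it fell with AA by 0.92 (adjusted p = 0.029, edgeR) and rose with 2i by 1.07 (adjusted p = 0.00585, edgeR). Maff, a small partner protein of NRF2, fell with 2i by 1.27 (SE 0.27, adjusted p = 0.0257, edgeR) and in AA+2i by 1.55 (adjusted p = 0.00604, edgeR). Bach2, a repressor that competes at the same elements, fell in AA+2i by 2.35 (SE 0.51, adjusted p = 0.0161, edgeR). With the block it fell with 2i by 1.46 (adjusted p = 0.00462, edgeR), and Nr1i3, the xenobiotic receptor CAR, fell by 2.07 (adjusted p = 0.0214, edgeR). With AA, edgeR, DESeq2 and limma called 0 regulators without a block, with 1 at an unadjusted edgeR p under 0.05. Over the alternatives the adjusted p in AA+2i reached 0.148 for Ahr, 0.178 for Maff and 0.311 for Bach2, and that of Maff with 2i reached 0.396.

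**Figure D5:**
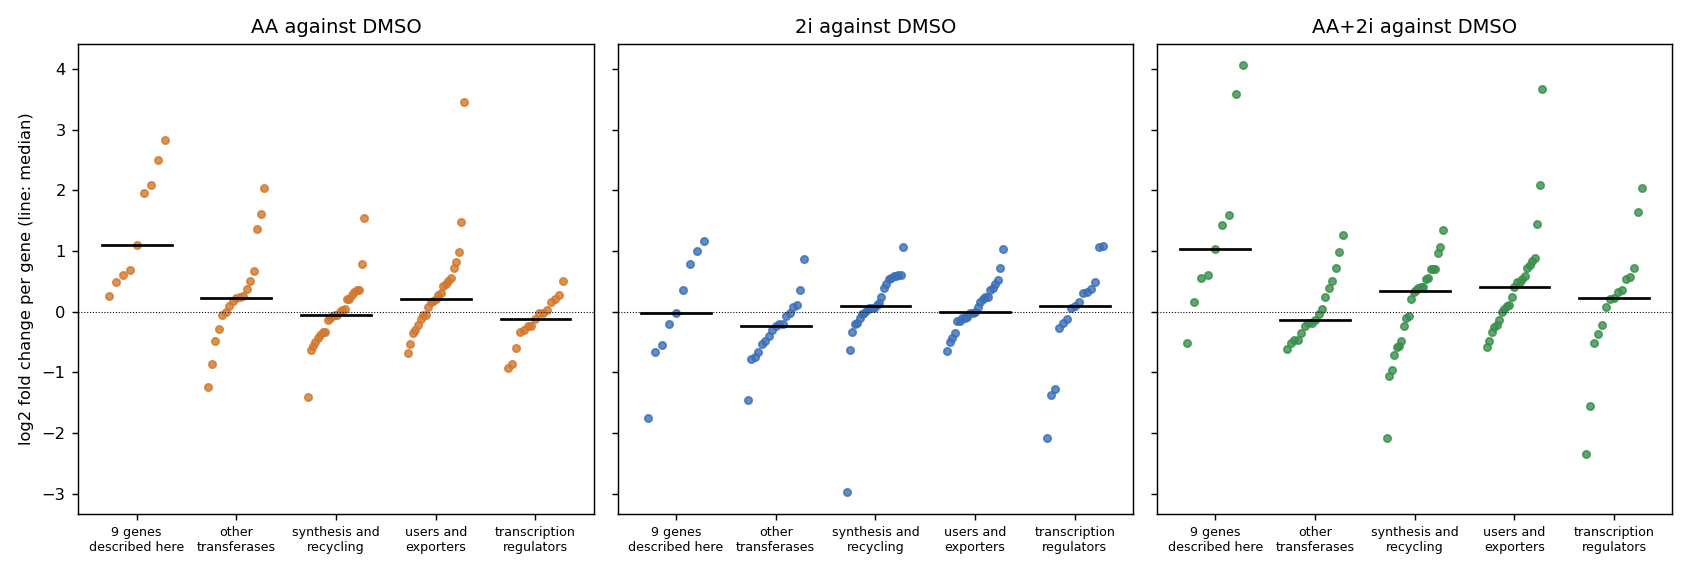
Fitted log2 fold change of each tested gene (points, ordered by value) and the median (line) in the 9 glutathione transferase genes described here, the 17 other transferases, 24 genes of glutathione synthesis and recycling, 23 users and exporters, and 15 transcription regulators, for each treatment against DMSO. The medians of the 9 genes, chosen with results known, are 1.10 with AA, -0.02 with 2i and 1.03 in AA+2i, and those of the other lists lie between -0.24 and 0.4.

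For 1 gene of each class, the genes most like it were sought by the root mean squared difference of centred log2(TPM + 1) over the 12 libraries. The nearest to Gsta1, whose own SD was 1.39, were Ooep (0.20), Tdgf1 (0.26) and Ly6f (0.51). Ooep, an oocyte and embryo protein, lies on the same chromosome, 133.4 kb from Gsta1 (mm9, 78223916 to 78226532). It was at 29.43, 21.9 and 53.28 TPM with DMSO, 112.1, 95.22 and 152.04 TPM with AA, 8.7, 8.62 and 8.58 TPM with 2i, and 31.77, 43.65 and 35.9 TPM in AA+2i. As for Gsta1, the AA libraries were above and the 2i libraries below every DMSO library, and AA+2i and DMSO overlapped. Tdgf1, a coreceptor of Nodal, was at 91.57 to 165.41 TPM with DMSO, 287.85 to 391.91 TPM with AA, 25.41 to 33.39 TPM with 2i and 114.43 to 144.13 TPM in AA+2i. The nearest to Gstk1 (SD 0.87) were Aox4 (0.33), As3mt (0.34) and Clec4a3 (0.35), of which As3mt encodes a methyltransferase of arsenic. Gstm1 (SD 0.33) had Map2k3 (0.13), Lrrc16a (0.15) and Coro2a (0.15), and Gstp1 (SD 0.62) had Pepd (0.13), Coro1b (0.15) and Nr2c2ap (0.15). These are descriptions of likeness over libraries that share depth and GC dependence.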

How the data were processed

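RNA-seq of 12 pre-iPSC libraries was used, 3 in each of 4 conditions (DMSO, AA, 2i, AA+2i). Per the labels and the study's methods, the authors trimmed the first bases of the reads, aligned them with Bowtie2 to mm9 RefSeq transcripts and quantified genes with RSEM 1.2.4. RSEM divides reads that match several genes between them in proportion. The authors deposited an expected count, a TPM value and an FPKM value for each of 20325 genes. The deposited TPM values were used for levels, and FPKM only to restore 1 malformed TPM cell, of a gene not described here. The deposited expected counts were rounded to whole numbers for the tests. Per the study's methods reads were counted without regard to strand, so an overlapping gene on the other strand could not be told apart.

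edgeR 4.0.16 (R 4.3.3) was run with relative log expression factors on the 13400 genes that reached 10 counts in 3 or more libraries, in 1 model with a mean per condition (8 residual degrees of freedom). A gene was called at a Benjamini-Hochberg adjusted p under 0.05 by the quasi-likelihood test over all tested genes. The standard error was taken as the size of the log2 change over the root of the F value. Alternatives used TMM factors, DESeq2 1.42.0, limma 3.58.1 on log2(TPM + 1), other count filters, a replicate block, a correction for GC content (known for 99.21% of tested genes), leaving out a replicate letter, only the compared groups, and summed copies. Alignments were made with Biopython, and 90-base windows were matched exactly among the mm9 transcripts of the annotation.

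The members and lists were chosen with earlier results of these data known. The text names all 10 members, up to 4 genes of each other list with the smallest adjusted p among those called against DMSO, and the 3 genes most like 1 member of each class. Genes named outside this rule (Gclc, Gclm, Nfe2l2, Keap1, Gsto1, Mgst3, the genes called only with the block, the markers, and those called for AA+2i against AA) were chosen after their values were seen. Gstm2, Gstm4, Gstm5 and Gstm7 were named, also with values seen, as mu genes outside the 10. The replicate letters were checked for pairing by correlating deviations from the condition means: for A, B and C these were 0.894, 0.694 and 0.608 between AA and DMSO and 0.787, 0.177 and 0.513 between 2i and DMSO, all over 0.1, which was taken as pairing. AA+2i with DMSO gave 0.17, -0.588 and 0.535, which was not. Over all conditions, pairs with the same letter averaged 0.401 and pairs with different letters -0.196. Single pairs with different letters reached 0.769, so a value over 0.1 is a weak sign of pairing. The block was fitted as 1 letter effect over all 12 libraries, those of AA+2i included.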

Additional observations from a re-analysis of the deposited data

How the results depend on the processing

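No log2 change past the threshold reversed its sign under the 15 alternatives, of which 2 (without DMSO replicate A, and Gsta1, Gsta2 and Gm10639 summed) were chosen after seeing the data. Of 779 values of the members under alternatives, 758 kept their sign. Counts of the 9 member genes called moved as follows, and the cause was not tested. With AA (3 called), leaving out a replicate letter gave 0 to 1, leaving out DMSO replicate A gave 1, fitting only the 2 groups gave 0, and the GC correction with the replicate block gave 6. With 2i (1 called), leaving out a letter gave 0 to 1, the replicate block 2 and the GC correction with block 4. With AA+2i (4 called), leaving out a letter gave 0 to 2 and fitting only the 2 groups gave 1. For AA+2i against 2i (2 called), leaving out a letter gave 0, the replicate block 5, the GC correction 5, both together 7 and DESeq2 4. For AA+2i against AA (1 called), leaving out a letter gave 0 to 1, the replicate block 3, the GC correction with block 6, and limma on log2(TPM + 1) 2. The numbers do not pair AA+2i with the other conditions, so the block there rests on a shared letter.

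Over the 3 comparisons with DMSO, the other transferases called (0) came to 4 with the replicate block, 1 with the GC correction, 6 with both and 2 with DESeq2. Synthesis and recycling genes called (3) came to 10 with the replicate block, 10 with the GC correction, 12 with both, 7 with DESeq2, 1 with limma, 0 with only the 2 groups, 1 without DMSO replicate A, and 0 to 1 without a replicate letter. Users and exporters called (1) came to 0 where 10 counts were required in every library, 6 with the replicate block, 4 with the GC correction, 12 with both, 3 with DESeq2, and 0 to 1 without a letter. Regulators called (3) came to 5 with the replicate block, 5 with the GC correction, 6 with both, and 0 to 2 without a letter. With counts in place of TPM, the mu share of the 10 genes moved from 2.93 to 4.17% in DMSO and from 3.2 to 4.85% in AA+2i. TMM factors and summing the copies kept every count within 1.5 times. Gsta2 (at most 6.57 counts) and Gstm3 (at most 30.4 counts) are limited by depth, so their absence in a library was not resolved.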

Other observations

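In the comparison of AA+2i with AA, which shows what 2i added in the presence of AA, 2 of the 17 other transferases were called by edgeR, where 6.1% of all tested genes were called. Mgst1, the microsomal transferase, was at 117.93, 83.84 and 55.11 TPM with AA and at 163.86, 227.22 and 131.31 TPM with AA+2i, a rise of 1.2 on the log2 scale (SE 0.29, adjusted p = 0.0303, edgeR, range 3.02e-05 to 0.541 over the alternatives). Gm10639, the alpha gene that shares windows with Gsta1, was at 4.07, 5.34 and 9.66 TPM with AA and at 1.88, 0.87 and 0.99 TPM with AA+2i, and fell by 2.22 (SE 0.55, adjusted p = 0.0364, edgeR, range 0.00339 to 0.501). In the same comparison Ahr rose by 2.57 (SE 0.30, adjusted p = 0.000761, edgeR, range 6.17e-15 to 0.0804) and Maff fell by 1.58 (SE 0.28, adjusted p = 0.00665, edgeR, range 2.1e-06 to 0.274).

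Mgst3, a membrane-bound transferase with peroxidase activity, was at 29.6, 136.77 and 133.28 TPM with DMSO, at 125.13, 311.7 and 304.66 TPM with AA, at 57.07, 69.25 and 69.44 TPM with 2i, and at 157.54, 160.66 and 181.78 TPM with AA+2i. AA+2i was above every DMSO and every 2i library, whereas AA and DMSO overlapped through replicate A, the lowest library in both. Within each letter the AA library was above the DMSO library. edgeR did not call it against DMSO without the block, and with the block it was not called with AA or with 2i.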
